A study of Rattus norvegicus with 24 samples.

Results

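Induced INS1 cells given PAIR1 were compared with induced INS1 cells given KIRA9 at 4 h. The comparison takes 6 of the 24 libraries of the series, 3 for each compound, chosen by the treatment and time in the sample titles. INS1 cells derive from a rat insulinoma and keep traits of beta cells of the pancreas, and all cells here carry a mouse IRE1α transgene that doxycycline switches on. Both compared groups received doxycycline together with the compound. A pair of vehicle groups at 4 h is given beside them, each with 3 libraries: induced cells with doxycycline and no compound, and uninduced cells with neither. The same 4 groups were also sampled at 24 h. The labels do not say whether the line is a single clone, they give no dose for either compound, and no uninduced cells received a compound.

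IRE1α is a sensor of the unfolded protein response in the membrane of the endoplasmic reticulum, with a kinase and an RNase domain on its cytosolic side. Its RNase cuts Xbp1 mRNA, whose spliced form encodes a transcription factor for chaperone and secretory genes, and at strong activation it also degrades other mRNAs at the endoplasmic reticulum, among them those of secreted proteins such as insulin in beta cells. Ligands of the ATP site of the kinase act on the RNase from a distance. KIRAs are known as kinase inhibitors that attenuate the RNase, and the study's title describes PAIRs as partial antagonists that separate the RNase outputs. The comparison therefore asks whether a partial antagonist and an attenuator leave different transcripts early after induction.

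The counts are listed by Ensembl gene ID. They come without gene names, and the reference table held an entry for 0 of the 26689. Genes, pathways and cell type markers could not be read by name, the level of the transgene could not be checked against the labels, and no sequence can be assigned to an ID. At most 2 IDs in each direction are printed, and the rest are described by counts, levels and ranges.

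The 3 PAIR1 libraries held 15.3, 15.2 and 19.0 M counts (M for mega) and the 3 KIRA9 libraries 14.9, 15.1 and 16.9 M. A count of 0 allows up to 3 counts, which is 0.158 to 0.201 CPM (counts per M counts) in these libraries, for counting error only. The number of IDs detected was 16078 ± 116 with PAIR1 and 16175 ± 61.3 with KIRA9 (SD, n = 3; exact two-sided permutation p = 0.3). The share of counts in the 10 most abundant IDs was 8.59 ± 0.0156% and 8.77 ± 0.0718% (SD, n = 3), and the PAIR1 values all lay below the KIRA9 values; the exact permutation p was 0.1, the smallest that 3 against 3 allow, and 0.3 after adjustment over 3 library measures. Between pairs of libraries, the root mean square difference over IDs with at least 5 CPM was 0.218 to 0.243 on the log2 scale within PAIR1, 0.221 to 0.236 within KIRA9 and 0.227 to 0.257 between the compounds, so that these ranges overlapped. A chi-square of the counts of 2 libraries, in which abundant IDs weigh more, came for each degree of freedom to 3.57 to 4.36 within PAIR1, 3.52 to 4.30 within KIRA9 and 7.18 to 8.22 between the compounds, with no overlap. None of the 6 compared libraries belongs to the 6 libraries of the series that stand apart by a block of 32 IDs. The vehicle groups hold 5 of those 6. At 4 h these are induced replicate 3 and uninduced replicate 2, and at 24 h induced replicates 1 and 2 and uninduced replicate 2. The remaining library belongs to a compound group at 24 h and so enters the comparison of the compounds at that time. In the comparison at 4 h, 0 of these 32 IDs were called.

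At 4 h a small part of the IDs tested was called between the compounds, which is no count of all IDs that differ. Before adjustment, 1695 IDs had p below 0.05 in edgeR's quasi-likelihood test. Of 13760 IDs tested, PAIR1 cells held more of 113 and less of 170 than KIRA9 cells, which is 0.821% and 1.24% of those tested and 2.06% together (edgeR's quasi-likelihood test, Benjamini-Hochberg adjusted p below 0.05). The differences were small, and they were larger among the IDs lower with PAIR1. The median log2 difference, PAIR1 minus KIRA9, was 0.19 among the 113, with quartiles of 0.15 and 0.25, and 86 of them differed by less than 1.2-fold. It was -0.35 among the 170, with quartiles of -0.53 and -0.24, and 52 differed by less than 1.2-fold. A difference of at least 2-fold was reached by 8 of the IDs lower with PAIR1 and by 0 of those higher, and one of at least 1.5-fold by 36 and by 4. Part of the largest differences lay at low levels. Both group means were below 5 CPM in 6 of the lower and 1 of the higher IDs. The 2 IDs called below 1 CPM on average over the 24 libraries were both lower, with a median absolute log2 difference of 2.66.

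The 3 PAIR1 and the 3 KIRA9 libraries did not overlap in 112 of the 113 IDs and in 168 of the 170. Over all IDs tested they did not overlap in 18.8%, with PAIR1 above KIRA9 in 9.68% and below it in 9.08%. The calls come from these same libraries, so the lack of overlap among called IDs follows in part from the choice. There was 1 ID with no count in any PAIR1 library and more than 3 counts in each KIRA9 library, and 0 IDs with the opposite pattern. The count depended on single libraries. Without PAIR1 replicate 1 it was 187 (60 higher, 127 lower), and 180 of these were among the 283. Without uninduced replicate 1 at 24 h, a library outside the comparison that enters the shared estimate of spread, it was 374 (177 higher, 197 lower) and held all 283. Without any 1 of the 6 compared libraries the IDs higher with PAIR1 numbered 60 to 76 and those lower 127 to 155. DESeq2 called 167 IDs higher and 166 lower, so the excess of IDs lower with PAIR1 was not seen with that tool.

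**Figure D1:**
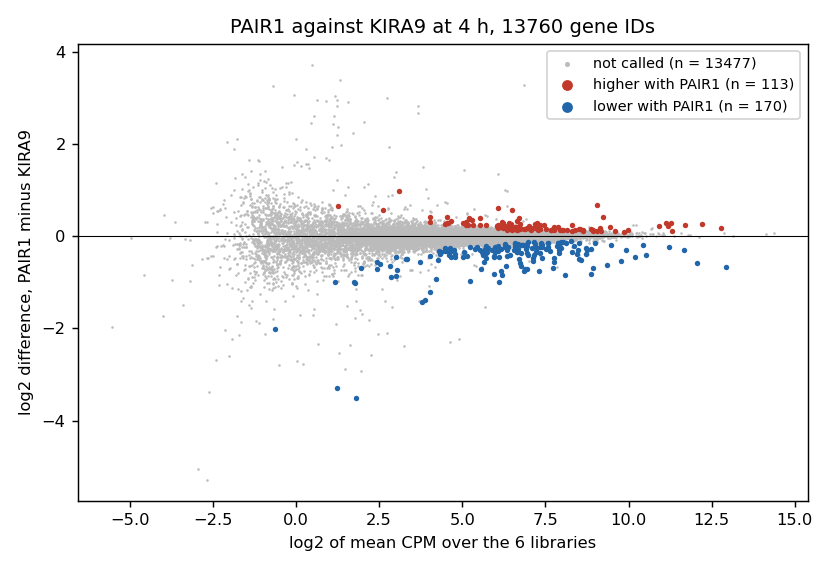
Log2 difference of PAIR1 minus KIRA9 at 4 h (vertical axis) against the log2 of the mean CPM over the 6 libraries (horizontal axis), 1 point for each of 13760 IDs. The 113 IDs called higher and the 170 called lower with PAIR1 are coloured, and the lower ones reach further from 0.

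The called IDs were mostly abundant transcripts, with a median over the 6 libraries of 107 CPM among those higher with PAIR1 and 96.2 CPM among those lower, against 26.1 CPM over all IDs tested. Of the 2305 IDs at 100 CPM or more on average over the 24 libraries, 6.12% were called (69 higher, 72 lower). The share was 2.01% among 5373 IDs from 20 to 100 CPM, 0.858% among 3032 from 5 to 20 CPM, 0.302% among 1989 from 1 to 5 CPM and 0.189% among 1061 below 1 CPM. The standard error of the log2 difference moved with abundance, from a median of 0.04 at 100 CPM and above to 0.49 below 1 CPM. Among the 26 IDs called between 5 and 20 CPM, 22 were lower with PAIR1 and 4 higher.

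For most IDs that were not called, the data limit how far the compounds can differ. Of these 13477 IDs, 74.8% had a 95% interval of the log2 difference that lay between -0.5 and 0.5, and 89.1% between -1 and 1. For the other 1475 a 2-fold difference in at least 1 direction was not excluded by the interval. Among these 1475 IDs, 171 differed by 2-fold or more in their fitted means without passing the test (82 higher and 89 lower with PAIR1). In 35 of these the higher mean was 5 CPM or more, and 29 of the 35 varied by more than 4-fold between replicates of 1 compound, a spread found in 0.685% of the 10796 tested IDs at that level.

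The IDs printed by name are the 2 in each direction with the largest difference among called IDs whose libraries did not overlap and whose higher mean reached 5 CPM. The rule left 111 IDs higher and 163 lower to choose from. No role can be given for any of the 4, since neither the files nor the reference annotate them.

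ENSRNOG00000012864 was higher with PAIR1, and it was the only one of the 4 that induction by itself had raised at 4 h. Its level was 663, 656 and 623 CPM in the PAIR1 libraries and 403, 402 and 405 CPM in the KIRA9 libraries. The groups stood far apart, and the KIRA9 libraries lay within 3 CPM of each other. The means were 647 ± 21.2 and 403 ± 1.42 CPM (SD, n = 3), a 1.61-fold difference (log2 0.68 ± 0.05 SE, adjusted p = 1.5e-09 in edgeR's quasi-likelihood test). Both lay between the vehicle groups, which held 113 ± 4.7 CPM in uninduced and 785 ± 35 CPM in induced cells. Against the same induced libraries the log2 difference was -0.28 ± 0.05 with PAIR1 and -0.96 ± 0.05 with KIRA9 (edgeR adjusted p = 0.00098 and 1.1e-12).

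ENSRNOG00000050061 had the largest fitted difference among the IDs higher with PAIR1, but its replicates were spread. Its level was 7.10, 12.9 and 13.6 CPM with PAIR1 and 5.38, 6.71 and 5.14 CPM with KIRA9. PAIR1 replicate 1 stood close to the KIRA9 libraries and apart from the other PAIR1 libraries. The log2 difference was 0.97 ± 0.25 (SE) with an edgeR adjusted p of 0.042. The call was lost in 15 of 32 alternative settings, 1 of which only lowered the threshold to 0.01. Over all 32 settings the edgeR adjusted p ran from 0.0067 to 0.21. The vehicle groups were also spread, at 10.6 ± 2.61 CPM in uninduced and 12 ± 2.45 CPM in induced cells (SD, n = 3). PAIR1 cells were more spread, at 11.2 ± 3.59 CPM, and KIRA9 cells less, at 5.74 ± 0.847 CPM.

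ENSRNOG00000010210 was lower with PAIR1 than with KIRA9, and both compounds were above the vehicle groups. It stood at 7.49, 7.90 and 7.01 CPM in the PAIR1 libraries and at 20.1, 23.0 and 17.7 CPM in the KIRA9 libraries. The lowest KIRA9 library was more than 2-fold above the highest PAIR1 library. The log2 difference was -1.44 ± 0.20 (SE, edgeR adjusted p = 5.2e-05). Uninduced cells held 4.37 ± 0.421 CPM and induced cells 3.84 ± 0.292 CPM (SD, n = 3), and against the induced libraries the log2 difference was 0.96 ± 0.21 with PAIR1 and 2.40 ± 0.21 with KIRA9 (edgeR adjusted p = 0.0091 and 1.6e-08).

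ENSRNOG00000007319 was higher with KIRA9 than in vehicle cells, and with PAIR1 it was not called against them. The PAIR1 libraries held 7.96, 8.56 and 8.13 CPM and the KIRA9 libraries 22.3, 20.9 and 20.8 CPM. The PAIR1 values lay inside the range of the induced vehicle libraries, 6.87 to 9.50 CPM, and every KIRA9 value lay above it. The log2 difference between the compounds was -1.38 ± 0.15 (SE, edgeR adjusted p = 2.5e-06). Against the induced libraries it was 0.00 with PAIR1, with a 95% interval from -0.32 to 0.33, and 1.38 ± 0.15 with KIRA9 (edgeR adjusted p = 7.4e-07).

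Of all IDs tested against induced vehicle cells at 4 h, PAIR1 gave calls on 3.2% (2.31% above and 0.887% below induced cells) and KIRA9 on 11.7% (6.01% above and 5.66% below), which is the background of the calls given for these IDs. Both comparisons use the same induced libraries, of which replicate 3 is one that stands apart. Without the 6 libraries that stand apart the numbers of calls were 246 in place of 440 with PAIR1 and 966 in place of 1606 with KIRA9. Leaving out PAIR1 replicate 2 or 3 gave 269 and 244 calls with PAIR1, and leaving out induced replicate 2 or 3 gave 290 and 292.

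**Figure D2:**
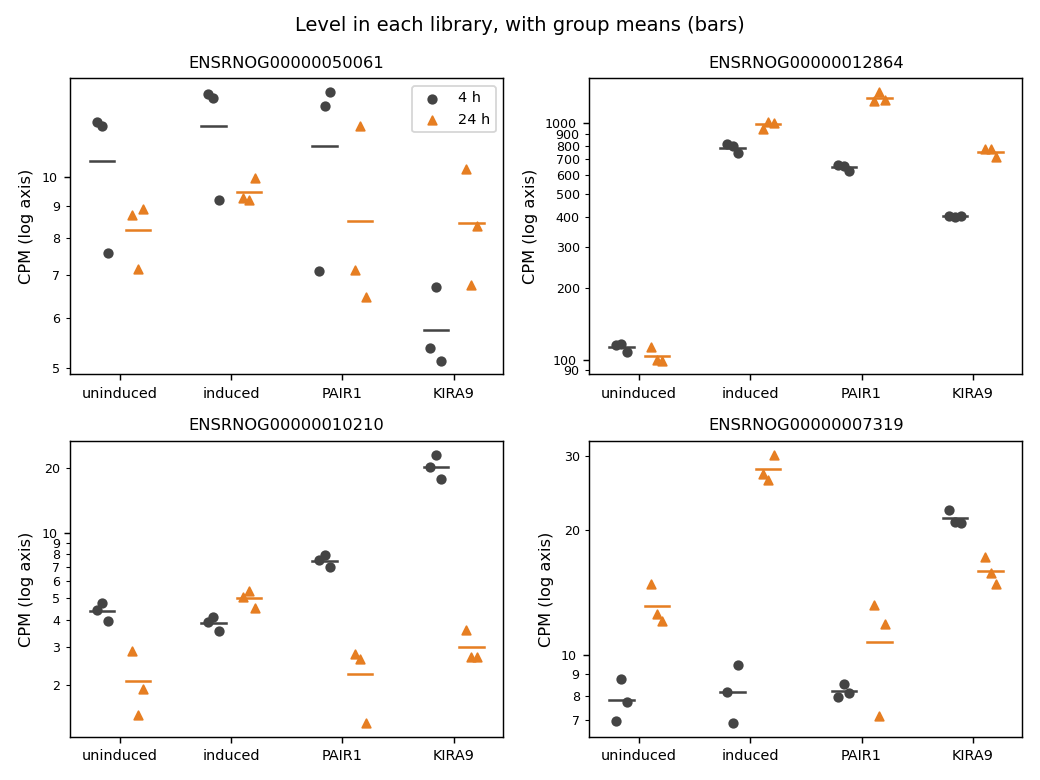
CPM on a log axis of the 4 printed IDs in each library of uninduced, induced, PAIR1 and KIRA9 cells at 4 h (circles) and 24 h (triangles), with bars at the group means of 3 libraries. At 4 h the PAIR1 and KIRA9 circles do not overlap in any panel, and PAIR1 replicate 1 of ENSRNOG00000050061 lies nearest to the KIRA9 libraries.

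Across the called IDs the PAIR1 libraries lay nearer to the vehicle groups than the KIRA9 libraries did. Each library was set against the mean of the uninduced libraries of its own time, as the median log2 difference over the IDs. For the 170 IDs lower with PAIR1, this was 0.16 to 0.18 in the 3 PAIR1 libraries, 0.49 to 0.53 in the 3 KIRA9 libraries and -0.01 in each of the 3 induced vehicle libraries at 4 h. For the 113 IDs higher with PAIR1, it was -0.06 to -0.05 with PAIR1, -0.27 to -0.23 with KIRA9 and -0.01 to 0.00 in induced vehicle libraries. The values at 4 h in the compound libraries follow in part from how the IDs were chosen and are a description.

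Against induced vehicle cells, the fitted log2 difference of the 170 IDs had a median of 0.17 with PAIR1, with quartiles of 0.07 and 0.32, and a median of 0.53 with KIRA9, with quartiles of 0.35 and 0.86. For the 113 IDs the medians were -0.06 with PAIR1 (quartiles -0.14 and 0.01) and -0.24 with KIRA9 (quartiles -0.39 and -0.17). Over all IDs tested the median was 0.00 in both comparisons, with quartiles of -0.07 and 0.08 with PAIR1 and of -0.09 and 0.11 with KIRA9. Induction without a compound, in libraries outside the comparison, gave a median log2 change at 4 h of -0.01 for the 113 and of -0.01 for the 170, against 0.00 over all IDs.

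**Figure D3:**
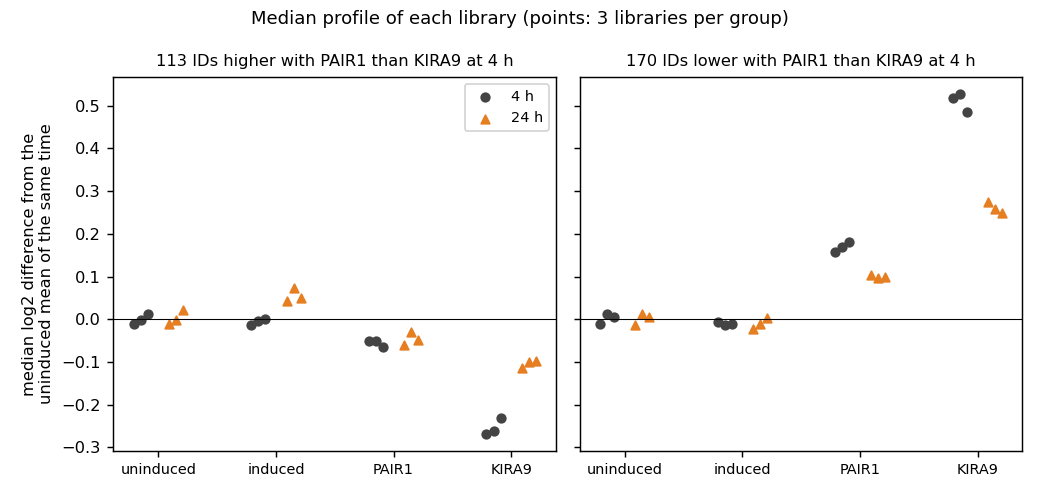
Median log2 difference of each library from the uninduced mean of the same time (vertical axis), over the 113 IDs (left) and the 170 IDs (right) that at 4 h were higher and lower with PAIR1; circles are 4 h and triangles 24 h libraries. In both panels the PAIR1 libraries lie between the induced and the KIRA9 libraries at 4 h, and the KIRA9 libraries lie furthest from 0 at both times.

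The same compounds were compared at 24 h in other libraries than at 4 h, within the same fit and its shared estimate of spread. At 24 h 16.3% of all IDs tested were called between PAIR1 and KIRA9, 6% higher and 10.3% lower with PAIR1. Of the 113 IDs higher with PAIR1 at 4 h, 46 (40.7%) were called higher and 13 (11.5%) lower at 24 h. Of the 170 lower at 4 h, 59 (34.7%) were called lower and 10 (5.88%) higher. The 105 IDs called in the same direction at both times are 37.1% of the 283 called at 4 h and 4.68% of the 2243 called at 24 h, and 23 of the 283 were called in opposite directions. Without the 6 libraries that stand apart, 1741 IDs were called at 24 h (555 higher, 1186 lower). In that setting 92 were called in the same direction at both times (33 higher, 59 lower).

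Abundance moved with these shares, so they were also taken over IDs with a mean of at least 20 CPM. Among the 108 such IDs higher at 4 h, 42.6% were called higher and 11.1% lower at 24 h. Among the 141 lower at 4 h, 39% were called lower and 7.09% higher. Among the 7429 not called at 4 h, 8.29% were higher and 15.3% lower at 24 h. The shares in the direction seen at 4 h thus lay above those of uncalled IDs over the same floor, with no test made of this. The floor does not make abundance alike, since 2.01% of IDs from 20 to 100 CPM were called at 4 h and 6.12% at 100 CPM or more.

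The differences of the called IDs were smaller in the 24 h libraries at the median. The median log2 difference was 0.09 at 24 h for the 113 IDs, against 0.19 at 4 h, and -0.09 for the 170, against -0.35 at 4 h. Over all IDs it was 0.01 at 24 h. Since the IDs were chosen for their difference at 4 h, part of this decrease follows from the choice. Among the 59 IDs lower at both times the median was -0.41 at 4 h and -0.46 at 24 h, and among the 46 higher at both times it was 0.24 and 0.20. Across the 283 IDs, which are not independent replicates, the log2 differences at 4 h and at 24 h had a correlation of r = 0.32, and across all 13760 IDs of r = 0.01.

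The difference between the times was tested directly, and 8.61% of all IDs were called for it, 2.16% with a more positive and 6.45% with a more negative value at 24 h. Among the 170 IDs lower at 4 h, 80 had a more positive value at 24 h and 13 a more negative one. Among the 113 higher at 4 h it was more negative in 28 and more positive in 1, which lies outside the IDs printed. This test uses the 4 h libraries by which the IDs were chosen.

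The 4 printed IDs took different courses. ENSRNOG00000012864 kept its difference, at 1280 ± 62.3 CPM with PAIR1 and 756 ± 33.2 CPM with KIRA9 at 24 h (SD, n = 3; log2 difference 0.76 ± 0.05 SE, edgeR adjusted p = 3.4e-11), and the change between times was 0.07 with a 95% interval from -0.06 to 0.21. At 24 h, however, PAIR1 stood above the 985 ± 34.8 CPM of induced vehicle cells, whereas at 4 h it had stood below them. ENSRNOG00000007319 was still lower with PAIR1 at 24 h, at 10.7 ± 3.18 against 16 ± 1.18 CPM (log2 difference -0.57 ± 0.15, edgeR adjusted p = 0.01), and the difference had become smaller by a log2 change of 0.81 ± 0.21 (edgeR adjusted p = 0.017). At that time induction without a compound had itself raised this ID, to 28.0 ± 2.07 CPM from 13.2 ± 1.45 in uninduced cells (log2 change 1.08 ± 0.14, edgeR adjusted p = 7.8e-07). ENSRNOG00000010210 stood at 24 h at 2.24 ± 0.796 CPM in PAIR1 and 3.00 ± 0.511 CPM in KIRA9 cells, a log2 difference of -0.44 ± 0.23 with a 95% interval from -0.92 to 0.05. Induction without a compound had raised this ID too by 24 h, to 5.01 ± 0.437 CPM from 2.08 ± 0.729 in uninduced cells (log2 change 1.24 ± 0.22, edgeR adjusted p = 3.5e-05), so that both compound means lay below that of induced cells. ENSRNOG00000050061 was at 8.53 ± 3.00 and 8.47 ± 1.77 CPM, a log2 difference of 0.01 with an interval from -0.50 to 0.52.

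**Figure D4:**
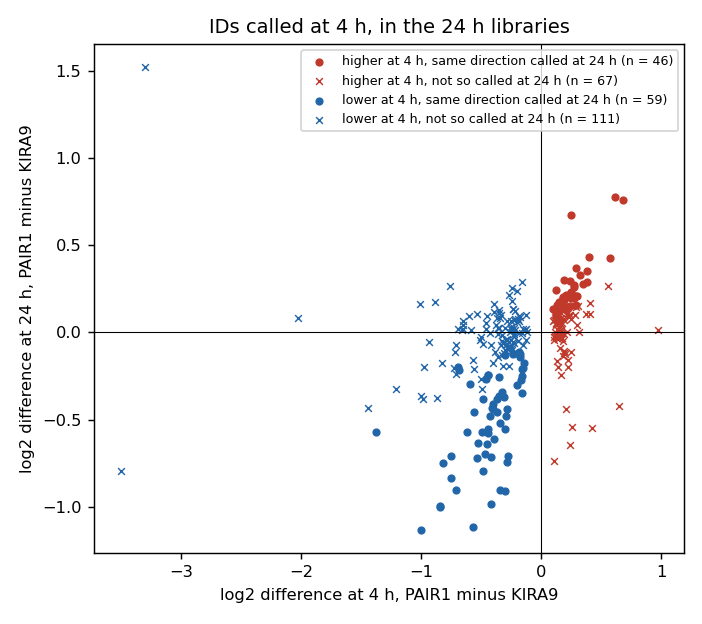
Log2 difference of PAIR1 minus KIRA9 at 24 h (vertical axis) against that at 4 h (horizontal axis) for the 283 IDs called at 4 h, which use separate libraries. Filled points are the 46 higher and 59 lower IDs called in the same direction at 24 h, and crosses are the other 67 and 111.

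The IDs that differ at 4 h were then set against the effect of induction, taken from vehicle libraries outside the comparison. These libraries still enter the shared estimate of spread behind all calls. At 4 h induction had raised 5 IDs and lowered 36, which is 0.0363% and 0.262% of those tested and 0.298% together. Of the 5 raised, 3 were higher with PAIR1 than with KIRA9, ENSRNOG00000012864 among them. Of the 36 lowered, 1 was higher and 3 were lower with PAIR1. Over all IDs tested 0.821% were higher and 1.24% lower, and 2.01% of the IDs not called for induction at 4 h were called. The 5 and the 36 are few, and no test was made of these shares. The other 276 calls at 4 h were on IDs that the test for induction did not call at that time.

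By 24 h induction had changed 61.8% of the IDs tested (29.8% raised, 32% lowered), and most of the 283 belong to them. Induction at 24 h was called for 90 of the 113 IDs higher with PAIR1 (79.6%), of which it raised 51 and lowered 39, and for 129 of the 170 lower with PAIR1 (75.9%), of which it raised 60 and lowered 69. Among IDs with at least 20 CPM the shares were 80.6% and 79.4%, against 75.5% of the IDs not called at 4 h, so that most of the distance from 61.8% moved with abundance. Read the other way, 1.24% of the 4102 IDs that induction raised at 24 h were higher and 1.46% lower with PAIR1 at 4 h, and 0.886% of the 4401 it lowered were higher and 1.57% lower. Over all IDs tested these shares were 0.821% higher and 1.24% lower. The balance among the raised IDs, 51 higher and 60 lower, was not stable: it was 71 and 54 with DESeq2, 84 and 65 without uninduced replicate 1 at 24 h, and 26 and 54 without PAIR1 replicate 3 at 4 h. Among the lowered IDs more were lower than higher in each of these settings. In both classes the median log2 difference at 4 h was close to 0, at 0.01 and 0.00. Both classes thus held calls at 4 h in both directions, at shares not far from those over all IDs, and no test was made of this.

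**Figure D5:**
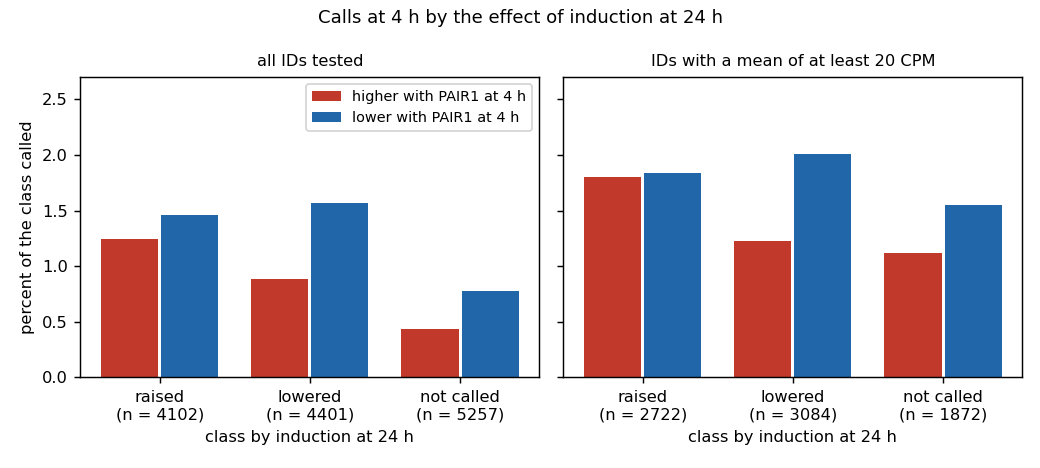
Percent of IDs called at 4 h as higher or lower in PAIR1 than in KIRA9 cells (vertical axis), for IDs raised, lowered or not called for induction at 24 h, over all IDs tested (left) and over those with a mean of at least 20 CPM (right). At 20 CPM and above the classes differ less, with 3.64% of raised, 3.24% of lowered and 2.67% of uncalled IDs called at 4 h.

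The IDs that differed in the same direction at both times were arranged otherwise. Of the 46 higher with PAIR1 at 4 h and 24 h, induction at 24 h had raised 29 and lowered 5. Of the 59 lower at both times, induction had lowered 50 and raised 4. This is the arrangement of all IDs called between the compounds at 24 h: of the 825 higher with PAIR1, 633 had been raised by induction and 43 lowered, and of the 1418 lower, 1305 had been lowered and 29 raised. Of the 67 IDs higher at 4 h and not so called at 24 h, induction had raised 22 and lowered 34, and of the 111 lower at 4 h and not so called, it had raised 56 and lowered 19. These 67 and 111 are what remains once the 46 and the 59 are taken out. Their balance follows from that removal and is no separate result. Over all IDs tested induction at 24 h raised 29.8% and lowered 32%. The induction contrast at 24 h compares none of the libraries that either compound comparison compares. All 24 libraries enter the shared estimate of spread, however, so the calls do not come from separate data. The number raised among the 46 was 18 without PAIR1 replicate 3 at 4 h and 55 without uninduced replicate 1 at 24 h, settings that also change which IDs are called.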

How the data were processed

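Poly(A) RNA of 24 INS1 libraries was sequenced, per the labels' protocols. The authors deposited raw read counts per Ensembl gene ID; HISAT2 and HTSeq are named per the submitters' processing notes, while versions, genome build, annotation and strand setting are not given in the sources used here. Genes that overlap, lie antisense or are nearly identical may therefore share reads. Columns were assigned by name and sample title. For the 6 induced vehicle libraries the time characteristic contradicts the title, which was used; the compared groups are not affected.

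The test was run in edgeR 4.0.16 (R 4.3.3). IDs passing filterByExpr at a minimum count of 10 (13760, with 12929 dropped, of which 6523 had no count) were scaled by TMM, and 1 quasi-likelihood model with a mean per group was fitted to all 24 libraries. P-values were adjusted by the Benjamini-Hochberg method over all IDs and called below 0.05. Group levels are TMM-scaled CPM, and library profiles use log2 CPM with a prior count of 2. Intervals are 95%. Nothing says that replicates came from separate cultures, so p-values measure the spread between these samples, which may be technical. Replicates of the compared groups differed by a chi-square of at least 3.52 for each degree of freedom, so none agreed within sampling noise. The procedure was also run on counts simulated from the spread fitted by the same model. The differences set there were larger than most of those called here. The outcome is not reported here, and the run does not bear on the small differences.

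The 39 gene lists and the symbol conditions for named genes could not be applied, since 0 IDs matched the reference. The comparison, lists and settings were chosen with earlier results of these data known, and the printed IDs follow a rule on size, level and overlap. The classes by induction, the split at 20 CPM, the library profiles and the removal of the libraries set apart were added after seeing the data. DESeq2 1.42.0, RLE scaling, other filters, fits and thresholds and leaving out each library were tried.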

Additional observations from a re-analysis of the deposited data

Results flagged for a closer look

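The difference between PAIR1 and KIRA9 was not the same at 24 h as at 4 h in 1185 of 13760 IDs by the test of that difference in edgeR, 297 more positive and 888 more negative at 24 h. Of the printed IDs, ENSRNOG00000010210 was called for it, with a log2 difference at 24 h minus that at 4 h of 1.00 ± 0.30 (SE, adjusted p = 0.041), and so was ENSRNOG00000007319, with 0.81 ± 0.21 (adjusted p = 0.017). In both, the 3 KIRA9 libraries at 4 h lay above the libraries of every other group at that time. No group holds more than 3 libraries, so single libraries were not tested as outliers within their groups. Libraries were set apart only by the block of IDs described above, and each library was left out in turn.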

How the results depend on the processing

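The directions of the printed differences held in the 33 alternatives with a value for ENSRNOG00000012864 and ENSRNOG00000007319 and in the 32 for ENSRNOG00000010210 and ENSRNOG00000050061, which leave out DESeq2, since it gave no adjusted p for them. In these, ENSRNOG00000012864, ENSRNOG00000010210 and ENSRNOG00000007319 also stayed called, at log2 differences of 0.67 to 0.70, -1.53 to -1.34 and -1.41 to -1.34. The difference between times was not run with the 12 libraries of 1 time, which hold no other time, and the gene lists were not run, since no ID has a name. At an adjusted p below 0.01 the counts fell, by the construction of that setting, to 167 for PAIR1 against KIRA9 at 4 h, 1426 at 24 h, 66 in the same direction at both times, 770 for the difference between times, 208 and 884 for PAIR1 and KIRA9 against induced cells at 4 h, and 67 and 62 for calls at 4 h among IDs raised and lowered by induction at 24 h. PAIR1 against induced cells gave 440 calls and KIRA9 1606; these were 8733 and 8939 with the times of the induced libraries taken from the conflicting characteristic, 246 and 966 without the 6 libraries set apart, and for PAIR1 280 with the compared libraries alone.

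Leaving out each of the 24 libraries gave 187 to 374 calls for PAIR1 against KIRA9 at 4 h, 244 to 526 for PAIR1 and 1128 to 1831 for KIRA9 against induced cells, 1776 to 2504 at 24 h, 1017 to 1364 for the difference between times, 80 to 144 in the same direction at both times, and 77 to 149 and 71 to 151 for calls among IDs raised and lowered by induction at 24 h. The lowest of the last 2 ranges came without PAIR1 replicate 1 at 4 h and the highest without uninduced replicate 1 at 24 h. The cause was not tested. For PAIR1 against KIRA9 at 4 h the count was 253 with no minimum count, 253 with a fit of the 6 compared libraries, 256 with the 12 libraries of 4 h and 231 without the libraries set apart. The higher calls moved more than the lower, to 85, 93 and 75 in the last 3 settings.

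With the replicate number as a block, the count was again 283 (109 higher, 174 lower), of which 267 were shared with the fit without it. Same-numbered PAIR1 and KIRA9 libraries did not deviate together, with correlations of -0.03 to 0.01 over 10698 IDs. All these IDs weigh equally in the correlation, so a pairing seen only in abundant IDs was not tested. RLE scaling gave 288 calls, and the median difference over all IDs was 0.005 with it and 0.002 with TMM on the log2 scale.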
